A study of Mus musculus with 10 samples.

Results

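The SLC25 family of mitochondrial carriers was followed in whole mouse kidneys after unilateral ureteral obstruction (UUO) or a sham operation. Members were taken by gene symbol, as every listed gene whose name begins with Slc25a and a number. This rule uses no measured values, but it was chosen with earlier results of these data known. The rule found 42 of 13920 listed genes, and 76 of 26686 listed transcripts. The kidneys came from C57BL/6 mice, and the 2 groups were 5 UUO libraries and 5 sham libraries, here called UUO 1 to UUO 5 and Sham 1 to Sham 5. In UUO one ureter is tied off so that urine backs up into that kidney, and in the sham operation the ureter is not tied. The treatment label of both groups is none. Age, sex and the time after surgery are not given in the labels, nor is it stated whether each library is a different animal, so the p-values measure the spread between these libraries. Total RNA was made into libraries with a stranded kit and sequenced on an Illumina NovaSeq instrument.

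SLC25 proteins are carriers of the mitochondrial inner membrane, apart from a few that sit in other membranes. Each moves small molecules that cannot cross the membrane alone, such as ADP and ATP, phosphate, dicarboxylates, amino acids, coenzymes and iron, and many work as exchangers that take one molecule in for another let out. The proximal tubule of the kidney is rich in mitochondria and depends on them to reabsorb salt, glucose and amino acids, so carrier RNA is abundant in normal kidney.

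Levels are FPKM, fragments scaled by transcript length and by the mapped fragments of the library, as deposited. A gene was tested where it reached 0.5 FPKM in at least 5 of the 10 libraries, and differences are UUO minus sham on the log2(FPKM + 1) scale, which understates the change of low genes. Folds are ratios of mean FPKM, and errors on means are SD over 5 libraries. A gene was called at a limma p below 0.05 after Benjamini-Hochberg adjustment over all 13202 genes tested. Of the 42 carriers, 40 passed the filter, and Slc25a43 and Slc25a47 did not.

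Most of the called carriers fell in UUO kidneys. Of the 40 tested, 20 were called lower and 6 higher, and 14 were not called. Over all genes tested, 16.1% were called lower, 58.5% higher and 74.7% in either direction, so the carriers held more lower calls and fewer higher calls than the background. The median log2 difference was −0.29 over the 40 carriers, beside 0.40 over all genes tested. The UUO and sham values did not overlap in 24 of the 40, a share close to the 59.7% of all genes. Among calls of at least 1 log2 unit, 8 carriers were lower and 2 higher, beside 5.23% and 18.7% of all genes.

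**Figure D1:**
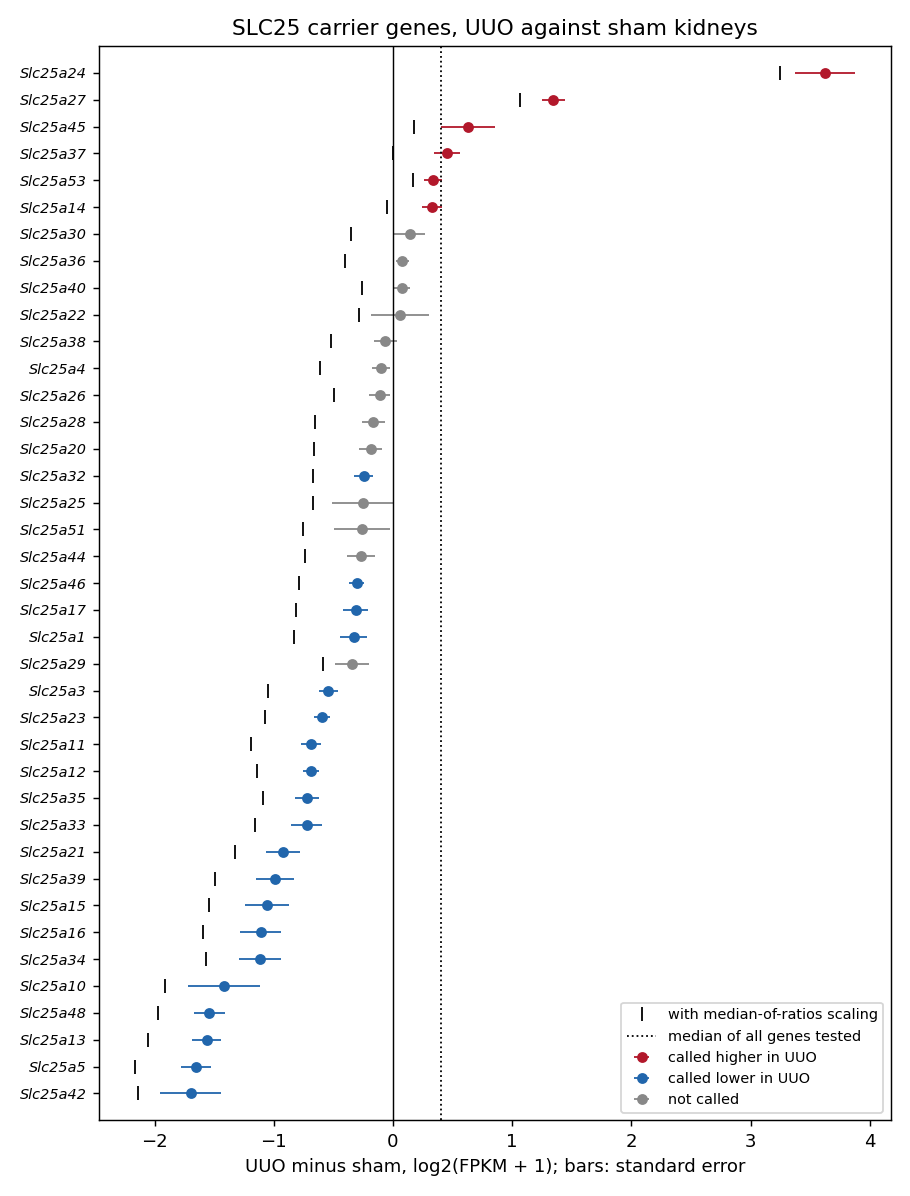
Differences of 39 of the 40 tested carriers, UUO minus sham in log2(FPKM + 1), 1 gene a row, with bars for the standard error (5 libraries a group). Ticks mark the same difference after median-of-ratios scaling, and the dotted line marks the median of all genes tested at 0.40. Slc25a24 stands highest at 3.62 and Slc25a42 lowest at −1.70.

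Because the median of all genes lay at 0.40 as deposited, each direction was also read with median-of-ratios scaling, which moved that median to 0.002. With that scaling 32 carriers were called lower and 3 higher, beside 34.3% and 34.1% of all genes (68.4% in either direction), and the carriers' median was −0.74. All 20 carriers called lower as deposited were also lower with this scaling. Of the 6 called higher as deposited, Slc25a24, Slc25a27 and Slc25a53 were also called higher, and Slc25a45, Slc25a37 and Slc25a14 were not. Slc25a53 passed the filter only through its UUO libraries, so its higher call was fixed by the filter. Of the 14 carriers not called as deposited, 12 were called lower with this scaling, and Slc25a22 and Slc25a30 were not called. With libraries scaled to equal sums the counts moved the other way, to 16 lower and 9 higher. There 4 of the lower calls were lost, and 3 carriers not called as deposited were called higher. The share of all genes called with equal sums is not given here, so these counts have no background beside them.

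The makeup of the libraries moved with the groups. All 13 proximal tubule markers were called lower, with a summed level of 2709 to 12917 FPKM in UUO kidneys and 20233 to 29795 FPKM in sham kidneys. All 7 macrophage markers were called higher, with 672 to 1261 FPKM in UUO kidneys and 29.7 to 46.5 FPKM in sham kidneys. So were all 6 fibroblast markers, with 261 to 537 FPKM in UUO kidneys and 14.7 to 24.8 FPKM in sham kidneys. Beside these counts, 16.1% of all genes tested were called lower and 58.5% higher. Genes of the mitochondrial genome held 9.31 to 13.4% of the summed FPKM in UUO kidneys and 21.2 to 24.5% in sham kidneys. The part of these shifts in the carrier results was not tested. In whole kidney, fewer cells of a type and less RNA per cell cannot be told apart. Sham 4 stood apart from the other sham libraries. Its 5 adipocyte markers summed to 291 FPKM, against 7.61 to 16.3 FPKM in the other sham libraries and 15.6 to 38.1 FPKM in UUO libraries, with Ucp1, the brown fat uncoupling protein, at 92.5 FPKM. Sham 4 was below all other sham libraries for 21 of the 42 carriers and above them for 13, and ratios or folds that moved by over 1.5 times without it are given both ways. Without Sham 4 the fit called 20 carriers lower and 5 higher, and no share of all genes is given for that fit.

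The adenine nucleotide and phosphate carriers bring ADP and phosphate in for ATP synthesis and let ATP out. Slc25a5 encodes ANT2, the ADP/ATP translocase of most dividing and epithelial cells, and Slc25a4 encodes ANT1, the form typical of heart and muscle. Slc25a5 had 124, 165, 187, 143 and 193 FPKM in UUO 1 to 5, against 531, 546, 509, 443 and 509.9 FPKM in Sham 1 to 5. Every UUO library was far below every sham library. The mean was 163 ± 29.2 FPKM in UUO kidneys and 508 ± 39.3 FPKM in sham kidneys, 3.13-fold lower, with a log2 difference of −1.65 ± 0.13 (SE; limma, adjusted p = 1.08e-06). Slc25a4 had 128, 116, 109, 118 and 116 FPKM in UUO 1 to 5, against 129.9, 141, 121, 115 and 123 FPKM in Sham 1 to 5. The groups overlapped, and its log2 difference of −0.10 ± 0.08 (SE; limma, adjusted p = 0.246) was not called as deposited. With median-of-ratios scaling Slc25a4 was called lower, at −0.61 (limma, adjusted p = 0.000432), so its direction against the median gene was downward, by less than that of Slc25a5 at −2.16.

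The ratio of Slc25a5 to Slc25a4 within each library needs no scaling between libraries. It was 1.40 ± 0.314 (range 0.974 to 1.72) in UUO kidneys and 4.04 ± 0.157 (range 3.86 to 4.19) in sham kidneys. These ratios did not overlap, and the log2 ratio with a pseudocount of 1 differed by −1.55 (exact permutation test, two-sided, p = 0.00794, adjusted p = 0.0102 over 9 pairs). The smallest p that relabelling 5 against 5 libraries allows is 0.00794. For every pair below, the ratios are printed without a pseudocount, and the log2 differences use a pseudocount of 1.

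Slc25a3 encodes the carrier that brings phosphate into the matrix. It had 71.9, 65.2, 58.2, 76.7 and 71.5 FPKM in UUO 1 to 5, against 102, 107, 98.2, 93.0 and 99.7 FPKM in Sham 1 to 5. All UUO libraries were below all sham libraries, with a mean of 68.7 ± 7.14 FPKM in UUO kidneys and 100.1 ± 5.29 FPKM in sham kidneys. That is 1.46-fold lower, a log2 difference of −0.54 ± 0.08 (SE; limma, adjusted p = 0.000143). To set levels of different genes side by side, the FPKM of each gene's listed transcripts were summed, since each of these is per length of its own transcript. On that scale Slc25a3 had 218 ± 28.1 FPKM, Slc25a5 213 ± 38.8 FPKM and Slc25a4 143 ± 8.36 FPKM in UUO kidneys. In sham kidneys Slc25a5 led with 669.5 ± 53.3 FPKM, followed by Slc25a3 with 334 ± 19.6 FPKM, Slc25a39 with 225 ± 11.98 FPKM and Slc25a4 with 153 ± 11.97 FPKM. Slc25a3 and Slc25a5 thus differed by less than their spread in UUO kidneys. Slc25a5 held 13.1 to 21.5% of the summed listed transcripts of the family in UUO kidneys and 27.6 to 30.1% in sham kidneys, while Slc25a4 held 9.76 to 12.6% in UUO kidneys and 6.39 to 7.04% in sham kidneys.

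**Figure D2:**
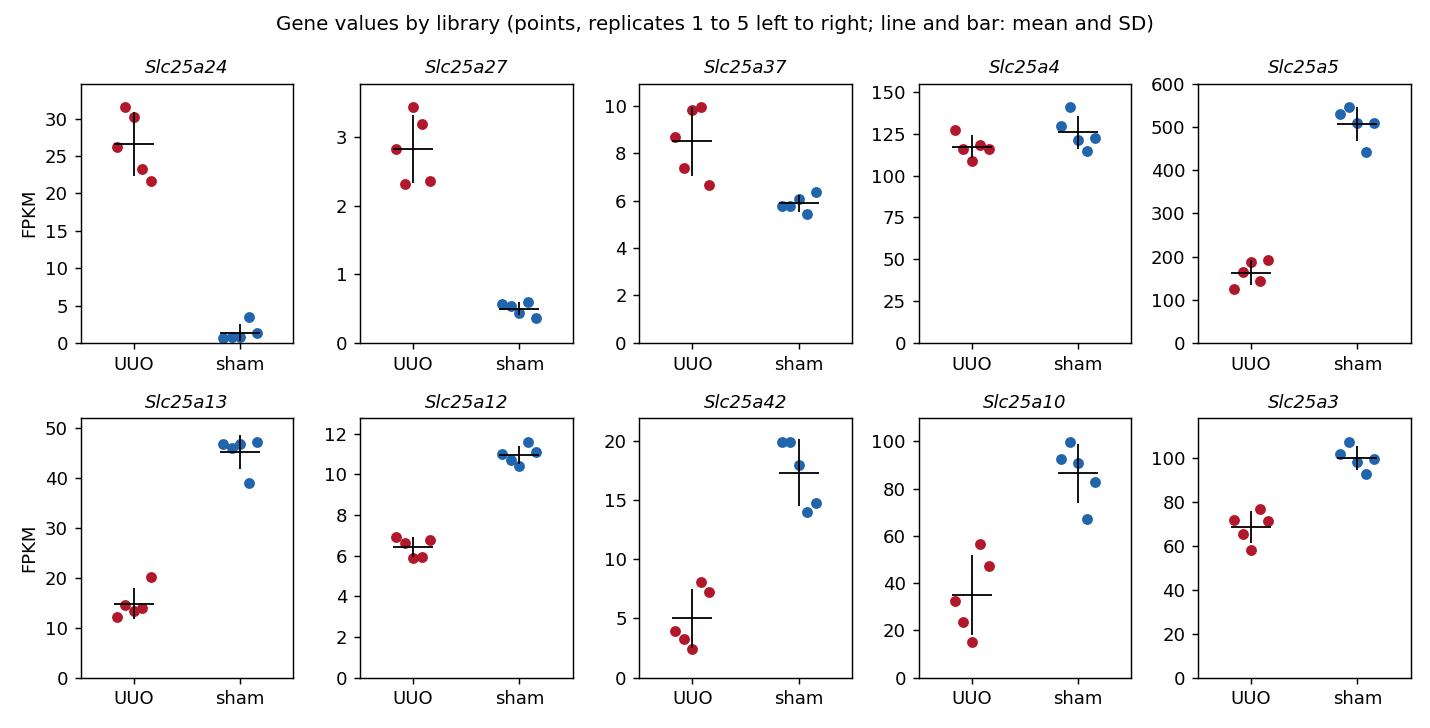
FPKM of 10 carriers in each library, UUO left and sham right in each panel, with a line at the mean and a bar for the SD over 5 libraries. Slc25a24 was at 21.7 FPKM or more in UUO libraries and at 3.46 FPKM or less in sham libraries, and Slc25a5 was at 193 FPKM or less in UUO libraries and at 443 FPKM or more in sham libraries, while Slc25a4 overlapped.

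The ATP-Mg/phosphate carriers exchange ATP bound to magnesium for phosphate and so change the size of the matrix adenine nucleotide pool. They carry calcium-binding domains that face the space between the membranes, and the 3 members moved apart. Slc25a24 had 26.2, 31.5, 30.2, 23.3 and 21.7 FPKM in UUO 1 to 5, against 0.685, 0.725, 0.814, 3.46 and 1.28 FPKM in Sham 1 to 5. It was low in every sham library, with Sham 4 the highest of them. The mean was 26.6 ± 4.26 FPKM in UUO kidneys and 1.39 ± 1.18 FPKM in sham kidneys, 19.1-fold higher, with a log2 difference of 3.62 ± 0.25 (SE; limma, adjusted p = 5.1e-07). Without Sham 4 the sham mean was 0.875 FPKM and the fold 30.4. The difference was 3.24 with median-of-ratios scaling.

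Slc25a23 had 12.3, 10.3, 10.7, 10.7 and 11.8 FPKM in UUO 1 to 5, against 17.8, 17.5, 16.9, 18.4 and 16.3 FPKM in Sham 1 to 5. It was lower in every UUO library, by a log2 difference of −0.60 ± 0.07 (SE; limma, adjusted p = 1.4e-05). Slc25a25 had 2.25, 3.25, 3.94, 6.11 and 8.80 FPKM in UUO 1 to 5, against 5.26, 7.21, 5.19, 4.75 and 5.19 FPKM in Sham 1 to 5. Its UUO libraries spread on both sides of the sham libraries, and the log2 difference of −0.25 ± 0.26 (SE; limma, adjusted p = 0.397) was not called as deposited, and was −0.67 with median-of-ratios scaling (limma, adjusted p = 0.0462). The Slc25a24 to Slc25a23 ratio was 2.40 ± 0.511 in UUO kidneys and 0.0790 ± 0.0631 in sham kidneys. With a pseudocount of 1, which understates the change of low genes, the log2 ratio differed by 4.22 (exact permutation test, p = 0.00794, adjusted p = 0.0102). For Slc25a24 to Slc25a25 the ratio was 7.05 ± 3.87 in UUO kidneys and 0.272 ± 0.261 in sham kidneys. Its log2 ratio with the same pseudocount differed by 3.87 (exact permutation test, p = 0.00794, adjusted p = 0.0102). Neither pair of ranges overlapped. Sham 4 had the highest sham ratio in both, at 0.188 for Slc25a24 to Slc25a23 and 0.729 for Slc25a24 to Slc25a25. Without it the sham means were 0.0516 ± 0.0183 for Slc25a24 to Slc25a23 and 0.158 ± 0.0627 for Slc25a24 to Slc25a25 (SD, 4 libraries). The log2 differences without Sham 4, with the same pseudocount, were 4.45 and 4.17.

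The promoters of Slc25a24, the carrier with the largest rise, of Slc25a5 and Slc25a13, at 3.13-fold and 3.05-fold lower, and of Slc25a4, the partner of Slc25a5, are printed here to show how their start regions differ. Each runs from 250 bases before to 50 bases after the RefSeq start on GRCm38.p6, 5′ to 3′ on the gene's strand, and capitals mark matches of the motifs searched.
Slc25a24: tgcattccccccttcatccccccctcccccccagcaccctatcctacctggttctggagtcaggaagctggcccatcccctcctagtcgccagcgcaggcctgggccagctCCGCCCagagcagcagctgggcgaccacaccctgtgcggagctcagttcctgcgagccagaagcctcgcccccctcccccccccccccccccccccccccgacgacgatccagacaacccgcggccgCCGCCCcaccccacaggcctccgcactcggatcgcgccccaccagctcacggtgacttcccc
Slc25a5: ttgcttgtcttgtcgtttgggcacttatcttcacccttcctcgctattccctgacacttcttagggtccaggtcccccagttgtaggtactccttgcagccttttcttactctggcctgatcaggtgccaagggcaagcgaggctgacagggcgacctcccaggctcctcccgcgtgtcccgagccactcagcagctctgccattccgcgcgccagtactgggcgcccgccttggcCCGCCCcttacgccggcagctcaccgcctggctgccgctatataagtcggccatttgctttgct
Slc25a4: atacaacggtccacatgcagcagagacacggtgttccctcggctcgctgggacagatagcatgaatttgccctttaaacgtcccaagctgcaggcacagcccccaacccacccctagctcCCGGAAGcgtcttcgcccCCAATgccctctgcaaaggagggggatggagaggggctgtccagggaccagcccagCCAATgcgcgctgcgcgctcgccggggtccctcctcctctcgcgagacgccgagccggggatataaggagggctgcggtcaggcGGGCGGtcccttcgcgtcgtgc
Slc25a13: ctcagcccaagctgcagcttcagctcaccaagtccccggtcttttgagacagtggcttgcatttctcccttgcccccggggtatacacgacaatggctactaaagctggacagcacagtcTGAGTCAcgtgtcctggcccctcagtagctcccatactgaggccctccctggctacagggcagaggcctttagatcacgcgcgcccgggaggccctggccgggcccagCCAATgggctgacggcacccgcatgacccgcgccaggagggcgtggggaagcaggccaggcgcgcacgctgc
The genes themselves lie at chr3:109123149-109168457 for Slc25a24, chrX:36795651-36798807 for Slc25a5, chr8:46206797-46211284 for Slc25a4 and chr6:6041218-6217173 for Slc25a13 on GRCm38. The windows are chr3:109122899-109123198 on the plus strand for Slc25a24, chrX:36795347-36795646 on the plus strand for Slc25a5, chr8:46211013-46211312 on the minus strand for Slc25a4 and chr6:6217124-6217423 on the minus strand for Slc25a13. The GC box GGGCGG, the CCAAT box CCAAT, the TATA box TATAAA, the NRF1 motif, the AP-1 motif TGANTCA, the ETS motif CCGGAAG, the ERR motif TCAAGGTCA and the NF-kB motif GGGANTTCC were searched on both strands, and overlapping matches of different motifs were each counted. Slc25a24 held 2 GC boxes and Slc25a5 held 1. Slc25a4 held 1 GC box, 2 CCAAT boxes and 1 ETS motif. Slc25a13 held 1 CCAAT box and 1 AP-1 motif. Of the 42 carriers, 33 had a promoter in the table, and GC boxes stood in 29 of them, beside 67.3% of 10254 tested genes with a promoter. CCAAT boxes stood in 19 of the 33, beside 42.3% of those genes, ETS motifs in 6, beside 19.3%, AP-1 motifs in 2, beside 6.48%, and NRF1, TATA and NF-kB motifs in 1 each, beside 10.99%, 9.04% and 2.67%. The ERR motif stood in 0 of the 33, beside 0.322%. A match is a description of letters and not a binding site.

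The aspartate/glutamate carriers export aspartate from the matrix in exchange for glutamate and are part of the malate-aspartate shuttle. Slc25a13 encodes citrin, the form prominent in liver, and Slc25a12 encodes aralar, prominent in brain and muscle. Slc25a13 had 12.2, 14.5, 13.4, 13.95 and 20.2 FPKM in UUO 1 to 5, against 46.9, 46.1, 46.9, 39.1 and 47.3 FPKM in Sham 1 to 5. The highest UUO library, UUO 5, stayed below the lowest sham library, Sham 4. The gene was 3.05-fold lower, with a log2 difference of −1.56 ± 0.12 (SE; limma, adjusted p = 1.05e-06). Slc25a12 had 6.92, 6.65, 5.88, 5.96 and 6.79 FPKM in UUO 1 to 5, against 11.01, 10.7, 10.4, 11.6 and 11.1 FPKM in Sham 1 to 5. It was 1.70-fold lower without overlap, with a log2 difference of −0.69 ± 0.07 (SE; limma, adjusted p = 5e-06). The ratio of Slc25a13 to Slc25a12 was 2.31 ± 0.434 in UUO kidneys and 4.14 ± 0.440 in sham kidneys, and this log2 difference of −0.87 means a larger fall of citrin than of aralar (exact permutation test, p = 0.00794, adjusted p = 0.0102).

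The enzymes that work with these carriers in the shuttle were lower too. All 4 malate-aspartate enzymes were called lower, beside 16.1% of all genes tested, with a median log2 difference of −1.003. Cytosolic malate dehydrogenase Mdh1 had the largest change, at 183 ± 51.7 FPKM in UUO kidneys and 418 ± 37.7 FPKM in sham kidneys (log2 difference −1.23). Mitochondrial aspartate aminotransferase Got2 differed by −1.10.

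The di- and tricarboxylate carriers link the citric acid cycle with the cytosol, and all 4 members were called lower, beside 16.1% of all genes tested. Slc25a10 exchanges malate or succinate for phosphate, and Slc25a11 exchanges 2-oxoglutarate for malate in the malate-aspartate shuttle. Slc25a10 had 32.3, 23.4, 15.1, 56.5 and 47.2 FPKM in UUO 1 to 5, against 92.5, 99.7, 90.7, 67.0 and 82.7 FPKM in Sham 1 to 5. UUO libraries were widely spread, with UUO 3 lowest and UUO 4 highest, but all lay below Sham 4, the lowest sham library. The mean was 34.9 ± 16.97 FPKM in UUO kidneys and 86.5 ± 12.5 FPKM in sham kidneys, 2.48-fold lower, with a log2 difference of −1.42 ± 0.30 (SE; limma, adjusted p = 0.00143). Slc25a11 had 47.1, 42.4, 40.2, 52.8 and 50.2 FPKM in UUO 1 to 5, against 74.0, 77.1, 77.8, 71.1 and 76.1 FPKM in Sham 1 to 5. It was lower in every UUO library, by −0.69 ± 0.08 on the log2 scale (SE; limma, adjusted p = 2.22e-05).

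The Slc25a10 to Slc25a11 ratio was 0.725 ± 0.283 in UUO kidneys and 1.15 ± 0.139 in sham kidneys, a log2 difference of −0.73 with overlapping ranges (exact permutation test, p = 0.0159, adjusted p = 0.0159). Its call was lost without Sham 1 or without Sham 2 (exact permutation test, adjusted p = 0.0556 each). Slc25a1, the citrate carrier, averaged 35.4 ± 4.27 FPKM in UUO kidneys and 44.9 ± 6.85 FPKM in sham kidneys, a log2 difference of −0.33 ± 0.11 (SE; limma, adjusted p = 0.0215). With libraries scaled to equal sums it was not called, at −0.14 (limma, adjusted p = 0.310). Slc25a21, the carrier of 2-oxoadipate and related oxodicarboxylates in lysine and tryptophan breakdown, averaged 2.83 ± 0.734 FPKM in UUO kidneys and 6.15 ± 0.720 FPKM in sham kidneys, 2.17-fold lower (log2 difference −0.92, limma, adjusted p = 0.000157). Of 3 enzymes of citrate metabolism, 2 were called lower and none higher, beside 16.1% and 58.5% of all genes. Their median log2 difference was −0.51.

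Among the 7 carriers of amino acids, 3 were called lower, none higher and 4 not called, beside 16.1% lower and 58.5% higher among all genes tested. Besides both aspartate/glutamate carriers, the lower one was Slc25a15, which exchanges ornithine and citrulline in the urea cycle and brings ornithine into the matrix. It had 13.4, 13.8, 10.1, 20.2 and 19.6 FPKM in UUO 1 to 5, against 36.6, 34.3, 35.2, 23.9 and 33.1 FPKM in Sham 1 to 5. Sham 4 was the lowest sham library and UUO 4 the highest UUO library, and the groups did not overlap. The gene was 2.11-fold lower, with a log2 difference of −1.06 ± 0.18 (SE; limma, adjusted p = 0.000349). Of the enzymes that handle ornithine and glutamate, mitochondrial arginase Arg2, which makes ornithine, was called higher, with 32.7 ± 10.03 FPKM in UUO kidneys and 3.95 ± 1.14 FPKM in sham kidneys (8.28-fold). Ornithine aminotransferase Oat was not called, at 76.8 ± 19.9 FPKM in UUO kidneys and 59.5 ± 12.5 FPKM in sham kidneys. Glutamate dehydrogenase Glud1 was called lower, at a log2 difference of −0.52 as deposited.

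The other 4 amino acid carriers were not called as deposited. Slc25a22, a glutamate carrier, averaged 2.33 ± 0.852 FPKM in UUO kidneys and 2.19 ± 0.795 FPKM in sham kidneys. Slc25a29, a carrier of basic amino acids, averaged 0.763 ± 0.340 FPKM in UUO kidneys and 1.23 ± 0.373 FPKM in sham kidneys (limma, adjusted p = 0.0507). Slc25a44, a carrier of branched-chain amino acids, averaged 9.002 ± 1.59 FPKM in UUO kidneys and 11.01 ± 1.29 FPKM in sham kidneys (limma, adjusted p = 0.0554), and Slc25a38, which brings in glycine for heme synthesis, averaged 7.46 ± 1.101 FPKM in UUO kidneys and 7.81 ± 0.524 FPKM in sham kidneys (limma, adjusted p = 0.550). Slc25a29 and Slc25a44 came close to the threshold and crossed it when some single libraries were left out.

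Slc25a20, the carnitine/acylcarnitine carrier that brings fatty acids to the matrix for oxidation, had 12.2, 11.5, 12.7, 14.5 and 13.4 FPKM in UUO 1 to 5, against 14.3, 16.5, 13.7, 17.2 and 12.5 FPKM in Sham 1 to 5. The groups overlapped, and the log2 difference of −0.19 ± 0.10 (SE; limma, adjusted p = 0.0992) was not called. The enzymes on both sides of that carrier were lower. All 3 carnitine enzymes were called lower, beside 16.1% of all genes tested. Crat, carnitine acetyltransferase, was at 8.86 ± 3.26 FPKM in UUO kidneys and 22.4 ± 2.27 FPKM in sham kidneys (log2 difference −1.31). Cpt1a and Cpt2, the carnitine palmitoyltransferases of the outer and inner membranes, differed by −1.13 and −1.20. With median-of-ratios scaling Slc25a20 was called lower, at −0.66 (limma, adjusted p = 0.000158), and the 3 enzymes were all at −1.63 or lower.

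The carriers of coenzymes bring in molecules made in the cytosol, such as coenzyme A and NAD+. Of 7 members 4 were called lower, none higher, and 3 not called, beside 16.1% lower and 58.5% higher among all genes tested. Slc25a42, which brings coenzyme A into the matrix, had 3.96, 3.28, 2.42, 8.11 and 7.22 FPKM in UUO 1 to 5, against 19.9, 19.9, 17.99, 13.9 and 14.8 FPKM in Sham 1 to 5. UUO 4 and UUO 5 were higher than the other UUO libraries but below every sham library. It was 3.46-fold lower, with a log2 difference of −1.70 ± 0.26 (SE; limma, adjusted p = 0.000128), the lowest of the family. Slc25a16, related to the coenzyme A carrier, had 17.6, 13.4, 9.04, 19.6 and 18.6 FPKM in UUO 1 to 5, against 34.4, 34.8, 34.5, 30.7 and 34.6 FPKM in Sham 1 to 5. It was 2.16-fold lower without overlap, at −1.11 ± 0.18 (SE; limma, adjusted p = 0.000175).

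The Slc25a16 to Slc25a42 ratio was 3.45 ± 0.911 in UUO kidneys and 1.99 ± 0.275 in sham kidneys, a log2 difference of 0.59 (exact permutation test, p = 0.0159, adjusted p = 0.0159) with overlap. Slc25a17, a peroxisomal carrier of coenzyme A and other cofactors, averaged 47.7 ± 5.03 FPKM in UUO kidneys and 59.8 ± 8.09 FPKM in sham kidneys (log2 difference −0.31, limma, adjusted p = 0.0185), with overlap. Slc25a32, linked to folate and FAD, averaged 4.37 ± 0.245 FPKM in UUO kidneys and 5.39 ± 0.612 FPKM in sham kidneys (log2 difference −0.25, limma, adjusted p = 0.0157). With equal sums neither was called, at −0.12 for Slc25a17 and −0.08 for Slc25a32. Slc25a26, the S-adenosylmethionine carrier (−0.11), and Slc25a51, the NAD+ carrier (−0.26), were not called.

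Iron and glutathione carriers serve heme and iron-sulfur cluster assembly in the matrix. Slc25a37 and Slc25a28 encode mitoferrin-1, typical of red cell precursors, and mitoferrin-2, used in other tissues, and Slc25a39 and Slc25a40 encode glutathione carriers. Slc25a39 had 52.4, 47.3, 38.6, 69.5 and 69.9 FPKM in UUO 1 to 5, against 109.8, 120.1, 118, 93.2 and 103 FPKM in Sham 1 to 5. It was 1.96-fold lower without overlap, at −0.99 ± 0.16 on the log2 scale (SE; limma, adjusted p = 0.00021). Slc25a40 had 2.12, 2.06, 1.95, 2.34 and 1.84 FPKM in UUO 1 to 5, against 1.90, 1.96, 1.84, 1.99 and 1.81 FPKM in Sham 1 to 5. These values overlapped and were not called as deposited, and with median-of-ratios scaling Slc25a40 turned and was called lower, at −0.26 (limma, adjusted p = 0.00545). The Slc25a39 to Slc25a40 ratio was 27.1 ± 7.13 in UUO kidneys and 57.4 ± 6.63 in sham kidneys, a log2 difference of −1.06 (exact permutation test, p = 0.00794, adjusted p = 0.0102).

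Slc25a37 had 8.70, 7.36, 9.83, 9.93 and 6.66 FPKM in UUO 1 to 5, against 5.77, 5.78, 6.08, 5.41 and 6.37 FPKM in Sham 1 to 5. Every UUO library was above every sham library, and the log2 difference of 0.45 ± 0.11 (SE; limma, adjusted p = 0.00261) was called higher as deposited. That call depended on which RNAs of the gene were counted and on the scaling. With median-of-ratios scaling the difference was 0.004 (limma, adjusted p = 0.979). The listed protein-coding transcripts made up 20.4 ± 10.3% of the Slc25a37 gene value in UUO kidneys and 39.1 ± 9.39% in sham kidneys, and their sum was 2.50 ± 1.35 FPKM in UUO kidneys and 3.34 ± 0.947 FPKM in sham kidneys. On that sum the difference was −0.38 (limma, adjusted p = 0.244), so no rise was seen in these transcripts. Red blood cell markers summed to 286 to 605 FPKM in UUO kidneys and 444 to 1155 FPKM in sham kidneys. Slc25a28 had 21.4, 25.0, 28.1, 23.8 and 25.4 FPKM in UUO 1 to 5, against 30.4, 23.9, 31.3, 26.7 and 26.9 FPKM in Sham 1 to 5, which overlapped and were not called as deposited, and with median-of-ratios scaling it was called lower, at −0.66 (limma, adjusted p = 0.00017). The Slc25a37 to Slc25a28 ratio of gene values was 0.346 ± 0.0678 in UUO kidneys and 0.213 ± 0.0245 in sham kidneys (log2 difference 0.62, exact permutation test, p = 0.00794, adjusted p = 0.0102), and it carries the same limit. Of 5 heme and iron-sulfur enzymes 4 were called lower, beside 16.1% of all genes tested. The cysteine desulfurase Nfs1 led them, with 18.4 ± 3.10 FPKM in UUO kidneys and 41.2 ± 4.15 FPKM in sham kidneys.

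**Figure D3:**
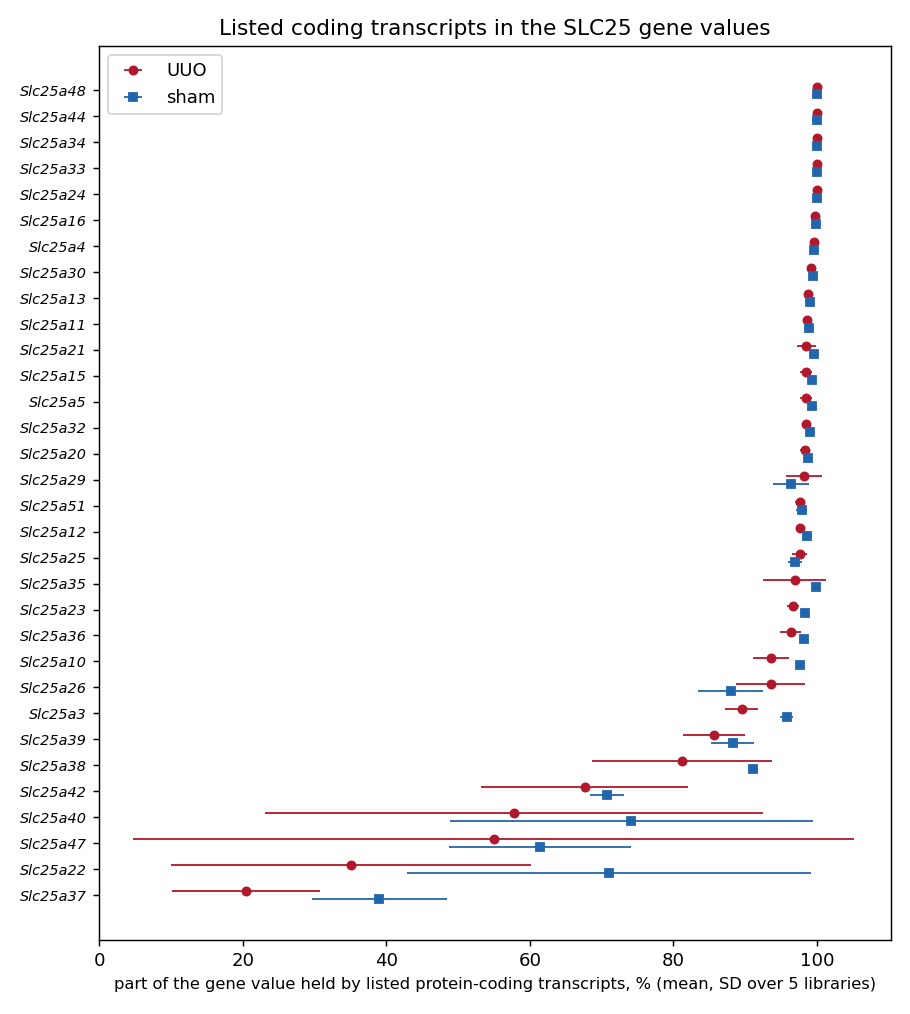
Part of each gene value, in percent, held by listed protein-coding transcripts, for 32 of the 33 carriers where it could be checked (mean and SD over 5 libraries, UUO circles above sham squares). In 5 carriers the mean was below 80% in a group, and Slc25a37 was lowest, at 20.4% in UUO kidneys and 39.1% in sham kidneys.

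The same check covered 33 carriers, and in 28 of them the listed coding transcripts held at least 80% of the gene value in both groups. Besides Slc25a37 the part was lower for Slc25a22, at 35.1% in UUO kidneys and 71.0% in sham kidneys, and for Slc25a40, at 57.8% in UUO kidneys and 74.2% in sham kidneys. For Slc25a42 it was 67.7% in UUO kidneys and 70.7% in sham kidneys, and for Slc25a47, which was not tested, 55.0% in UUO kidneys and 61.4% in sham kidneys. Tested on the sums of coding transcripts, 39 carriers gave the same 20 lower calls and 3 higher calls, of Slc25a24, Slc25a27 and Slc25a45, beside 16.2% lower and 51.5% higher among all genes.

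The pyrimidine nucleotide carriers Slc25a33 and Slc25a36 supply the matrix with precursors for mitochondrial DNA and RNA. Slc25a33 had 3.94, 3.32, 3.54, 5.53 and 5.41 FPKM in UUO 1 to 5, against 7.56, 9.04, 7.10, 6.82 and 8.16 FPKM in Sham 1 to 5. It was 1.78-fold lower in UUO kidneys without overlap (log2 difference −0.72, limma, adjusted p = 0.000501). Slc25a36 had 15.8, 13.9, 15.4, 14.9 and 15.6 FPKM in UUO 1 to 5, against 14.3, 14.4, 14.3, 13.6 and 14.5 FPKM in Sham 1 to 5. It overlapped and was not called as deposited, and with median-of-ratios scaling it turned and was called lower, at −0.40 (limma, adjusted p = 0.000957). Their ratio was 0.288 ± 0.0667 in UUO kidneys and 0.543 ± 0.0537 in sham kidneys, a log2 difference of −0.80 (exact permutation test, p = 0.00794, adjusted p = 0.0102).

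**Figure D4:**
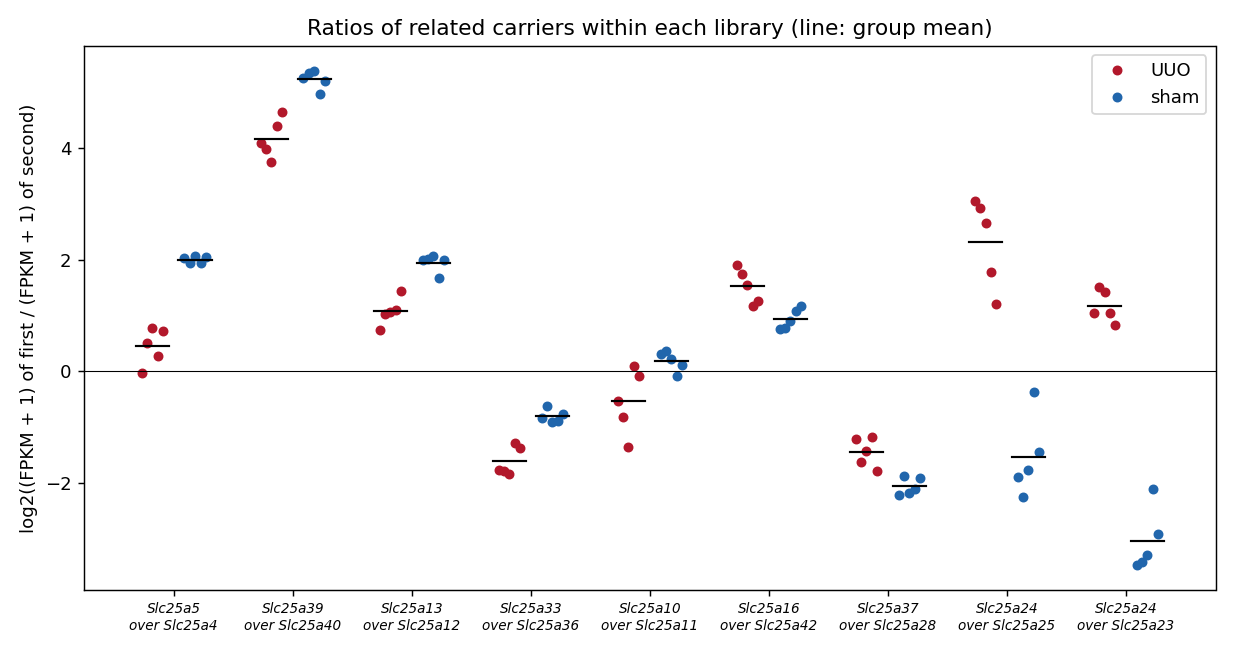
Within-library ratios of 9 pairs of related carriers, as log2 of (FPKM + 1) of the first gene over the second, with 5 UUO points left of 5 sham points in each pair and a line at each group's mean. The pair Slc25a24 over Slc25a23 stands highest in difference, at 4.22, and Slc25a5 over Slc25a4 lowest, at −1.55.

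All 9 pairs computed had an adjusted p below 0.05 (exact permutation test), and in 7 of them the groups did not overlap. No share over other gene pairs was computed to set beside these counts. Of all single genes tested, 74.7% were called and 59.7% did not overlap, so the counts are not read as particular to related carriers. The pairs with Slc25a23 and Slc25a25 also share Slc25a24. A further pair, Slc25a22 with Slc25a18, was not computed because Slc25a18 was not among the listed genes. These ratios use deposited gene values, so the level of a ratio depends on the length given to each gene, and only its difference between groups is read.

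The 3 carriers close to the uncoupling proteins gave 2 of the 6 higher calls, and 58.5% of all genes tested were called higher. Slc25a27, also called UCP4 and best known in brain, had 2.83, 2.33, 3.44, 3.19 and 2.36 FPKM in UUO 1 to 5, against 0.562, 0.544, 0.434, 0.592 and 0.365 FPKM in Sham 1 to 5. It was low in all libraries and higher in every UUO library. The mean was 2.83 ± 0.495 FPKM in UUO kidneys and 0.4996 ± 0.0961 FPKM in sham kidneys, 5.66-fold higher, with a log2 difference of 1.35 ± 0.10 (SE; limma, adjusted p = 6.99e-07). Median-of-ratios scaling gave 1.07. Slc25a14, also called UCP5, had 3.35 ± 0.476 FPKM in UUO kidneys and 2.45 ± 0.103 FPKM in sham kidneys. It was called higher as deposited, at 0.33 (limma, adjusted p = 0.0046), and stood at −0.05 with median-of-ratios scaling (limma, adjusted p = 0.598) and at −0.28 with quantile scaling. Slc25a30, a kidney member of this branch, averaged 26.5 ± 2.93 FPKM in UUO kidneys and 24.2 ± 4.59 FPKM in sham kidneys and was not called. Ucp2, a carrier of the family under another symbol, was 2.23-fold higher, with 21.4 ± 1.13 FPKM in UUO kidneys and 9.60 ± 3.76 FPKM in sham kidneys (log2 difference 1.15, limma, adjusted p = 0.000353). Mtch1 and Mtch2, relatives that sit in the outer membrane, differed by 0.41 and −0.44, and Mtch1 stood at −0.08 with median-of-ratios scaling. Ucp1 did not pass the filter, with 92.5 FPKM in Sham 4, 1.46 FPKM in Sham 5 and at most 0.280 FPKM in the other libraries.

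Members with roles that are less settled held 2 higher and 4 lower calls among 6 tested, beside 58.5% higher and 16.1% lower among all genes tested. Slc25a48 had 4.44, 4.12, 2.64, 4.73 and 3.72 FPKM in UUO 1 to 5, against 15.04, 11.6, 12.3, 14.7 and 12.6 FPKM in Sham 1 to 5. The groups stood far apart, 3.36-fold lower at −1.54 ± 0.13 on the log2 scale (SE; limma, adjusted p = 1.79e-06). Slc25a34 had 4.70, 3.95, 4.55, 7.42 and 8.04 FPKM in UUO 1 to 5, against 13.6, 14.7, 14.4, 10.3 and 13.3 FPKM in Sham 1 to 5. It was 2.31-fold lower at −1.12 (limma, adjusted p = 0.000167), with Sham 4 the lowest sham library. Its relative Slc25a35 averaged 2.06 ± 0.410 FPKM in UUO kidneys and 4.03 ± 0.385 FPKM in sham kidneys (log2 difference −0.72, limma, adjusted p = 7.39e-05). Slc25a46, an outer membrane member with a part in mitochondrial shape, averaged 14.2 ± 0.954 FPKM in UUO kidneys and 17.7 ± 0.662 FPKM in sham kidneys (log2 difference −0.30, limma, adjusted p = 0.00116). With equal sums Slc25a46 was not called, at −0.12 (limma, adjusted p = 0.0919).

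Slc25a45 had 11.8, 10.3, 9.99, 13.0 and 9.42 FPKM in UUO 1 to 5, against 9.95, 4.31, 8.83, 3.85 and 8.39 FPKM in Sham 1 to 5. Sham 2 and Sham 4 were low, and Sham 1 lay above the lowest UUO library. The log2 difference of 0.63 ± 0.23 (SE; limma, adjusted p = 0.0264) was called as deposited, but its adjusted p was 0.0545 without UUO 1, 0.0601 without UUO 4, 0.0650 without Sham 2 and 0.0520 without Sham 4. With median-of-ratios scaling the adjusted p was 0.562. Slc25a53 averaged 0.692 ± 0.0826 FPKM in UUO kidneys and 0.342 ± 0.104 FPKM in sham kidneys (log2 difference 0.34, limma, adjusted p = 0.00156). It passed the filter through the UUO libraries alone, which fixed its direction as deposited, so its call is given as a description. With quantile scaling Slc25a53 was called lower, at −0.32 (limma, adjusted p = 0.000824). Slc25a43 had 0.459, 0.520, 1.01, 0.559 and 0.105 FPKM in UUO 1 to 5, against 0.173, 0.112, 0.155, 0 and 0.0681 FPKM in Sham 1 to 5, and was not tested. Slc25a47, known from liver, averaged 0.416 ± 0.285 FPKM in UUO kidneys and 0.442 ± 0.127 FPKM in sham kidneys and was not tested.

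Among the carriers called lower, some UUO libraries stood at the ends of the range more often than others. Of the 20 called lower, UUO 3 was the lowest UUO library for 13 and UUO 4 the highest for 11, and the lowest was UUO 1, UUO 2 or UUO 3 for all 20. Not all followed that order, and Slc25a5 had UUO 1 lowest and UUO 5 highest. Proximal tubule markers summed to 8561, 4187, 2709, 12917 and 10322 FPKM in UUO 1 to 5, so UUO 3 was lowest and UUO 4 highest on those markers too. Neutrophil markers summed to 381 FPKM in UUO 3 and 16.1 to 52.5 FPKM in the other UUO libraries. The part of these differences in the carrier values was not tested.

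The use of transcripts was compared as each transcript's share of its gene's summed FPKM. Of 15 carriers and 36 of their transcripts that could be tested, 0 transcripts were called, beside 0.75% of 14003 transcripts. A call needed an adjusted p below 0.05 (limma on arcsine square root shares) and at least 10 percentage points. At an unadjusted p below 0.05 (limma) there were 9 of the 36, and the share of all transcripts at that threshold was not computed. Both transcripts of Slc25a13 and both of Slc25a42 are among them, and their shares mirror each other. No other tool was run on the shares. Slc25a3-201 held 86.2, 85.5, 84.3, 77.8 and 67.3% of Slc25a3 in UUO 1 to 5, against 94.4, 93.5, 90.9, 89.1 and 92.3% in Sham 1 to 5. All UUO libraries were lower, but the difference of −11.84 percentage points did not pass (limma, adjusted p = 0.14). Slc25a42-201 held 78.0 ± 4.73% of Slc25a42 in UUO kidneys and 88.3 ± 2.21% in sham kidneys, likewise without a call (limma, adjusted p = 0.12). A further 23 carriers had 1 listed transcript, so their use of transcripts could not be compared.

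Counts for genes around the carriers depended on the scaling. Over all genes tested, 16.1% were called lower and 58.5% higher as deposited. With median-of-ratios scaling these shares were 34.3% lower and 34.1% higher. Of the machinery that imports carriers through the outer membrane and into the inner membrane, 10 genes were tested. Of these, 2 were called higher and 4 lower, with a median log2 difference of −0.03. Timm22, the channel of the carrier insertion complex, had the largest change, with 3.92 ± 0.536 FPKM in UUO kidneys and 7.72 ± 2.59 FPKM in sham kidneys (log2 difference −0.78, limma, adjusted p = 0.00314). Of 7 genes of other routes into mitochondria, 2 were called higher and 3 lower, led by the pyruvate carrier subunit Mpc1 with 35.5 ± 8.47 FPKM in UUO kidneys and 91.7 ± 14.98 FPKM in sham kidneys (log2 difference −1.36). With median-of-ratios scaling 8 of the 10 import genes and 6 of the 7 other route genes were called lower, and none was called higher. Of 7 regulators of mitochondrial genes, 5 were called lower and 1 higher as deposited, and 6 lower and 0 higher with median-of-ratios scaling. Ppara, a nuclear receptor that drives fatty acid oxidation genes, had 2.71 ± 1.49 FPKM in UUO kidneys and 8.25 ± 0.878 FPKM in sham kidneys (log2 difference −1.39), and the coactivator Ppargc1a differed by −0.49. Nrf1 was called higher at 0.29 as deposited and stood at 0.04 with median-of-ratios scaling. Of 90 nuclear genes of the respiratory chain tested, 74 were called lower and 3 higher as deposited. With median-of-ratios scaling 86 were called lower and 2 higher. Their median log2 difference as deposited was −0.57, beside −0.29 for the carriers. Cox6b2, a subunit isoform best known from testis, was the largest of the higher ones, with 8.48 ± 2.17 FPKM in UUO kidneys and 1.80 ± 0.307 FPKM in sham kidneys.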

How the data were processed

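Total RNA of 5 UUO and 5 sham kidneys was sequenced, and the authors deposited tables of FPKM per gene and per transcript. The headers do not name the unit, which was taken from the values. Per the submitters' processing notes, cutadapt, HISAT2 and StringTie were used with GRCm38, with no versions given. Gene values behaved as fragments of all transcripts of a gene over its joined exon length, since the listed coding transcripts, each FPKM multiplied by the transcript length and their sum divided by the joined exon length, were at most 0.1 percent above the gene value in 100% of 114600 values compared and lay within 5 percent of it in 65.0%. Plain sums of listed transcript FPKM are a different scale and can exceed the gene value. No counts were used here, so depth is unknown apart from a 1.27-fold range among the sham libraries read from recurring low values, and no counting error is given. Each table held 1 emptied line, which was left out.

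FPKM of at least 0.5 in at least 5 of 10 libraries was required, and log2(FPKM + 1) was fitted with limma 3.58.1 (eBayes with trend) in R 4.3.3 over 13202 genes. Transcript shares were fitted with limma after an arcsine square root, and pair ratios were tested by exact permutation (numpy 2.4.6, Python 3.11.15). Scripts were tested on simulated data. Alternatives were other pseudocounts, no filter, equal sums, median-of-ratios, quantile scaling, each library left out, and, chosen after seeing the data, summed listed coding transcripts. Values of every library are given for called members of at least 1 log2 unit, the 5 most abundant, the 4 largest changes in the rarer direction and members of called pairs. Of each list beside them the called gene with the largest change is named, and others by their part with a named carrier. The members and lists were chosen with earlier results of these data known. Promoters are from RefSeq on GRCm38.p6. A few genes, 1 carrier among them, are counted but not reported by name here.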

Additional observations from a re-analysis of the deposited data

Results flagged for a closer look

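In each group of 5 libraries, the highest and lowest values of a carrier were examined on the log2(FPKM + 1) scale. A carrier was looked at again where such a library stood apart from the next by more than 0.71 of the group's whole range (Dixon's test at 95%). The values below are in FPKM, where the gaps are not the same part of the range. Of 84 groups, 11 met this, and chance gives about 1 in 20. Sham 4, the library with the high adipocyte markers, was the one that stood apart in 6 of the 11. It had 57.0 FPKM for Slc25a1, against 40.3 to 43.0 FPKM in the other sham libraries, and 39.1 FPKM for Slc25a13, against 46.1 to 47.3 FPKM. It had 23.9 FPKM for Slc25a15, against 33.1 to 36.6 FPKM in the other sham libraries, 30.7 FPKM for Slc25a16, against 34.4 to 34.8 FPKM, 10.3 FPKM for Slc25a34, against 13.3 to 14.7 FPKM, and 13.6 FPKM for Slc25a36, against 14.3 to 14.5 FPKM. The other cases fell in different libraries. Slc25a22 was at 0.946 FPKM in UUO 5, against 2.44 to 3.29 FPKM in the other UUO libraries, and at 0.845 FPKM in Sham 3, against 2.20 to 2.87 FPKM in the other sham libraries. Slc25a29 was at 1.36 FPKM in UUO 1, against 0.548 to 0.708 FPKM in the other UUO libraries, and Slc25a32 at 3.95 FPKM in UUO 3, against 4.38 to 4.54 FPKM. Slc25a25 was at 7.21 FPKM in Sham 2, against 4.75 to 5.26 FPKM in the other sham libraries.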

How the results depend on the processing

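The 6 higher calls became 3 with median-of-ratios scaling, 2 with quantile scaling, where 2 others turned to lower calls, and 3 on summed coding transcripts, where 1 was lost and Slc25a14 and Slc25a53, which have no listed transcript, were not tested. They became 9 with equal sums, and ranged from 4 to 6 with one library left out. The 20 lower calls became 32 with median-of-ratios and 33 with quantile scaling and 16 with equal sums, and ranged from 20 to 22 with one library left out. The 9 pair calls ranged from 8 to 9, and transcript calls stayed at 0. No share of all genes called is given for quantile scaling, equal sums, a replicate block or single libraries left out. Replicate numbers were not used as pairs. Deviations of same-numbered libraries correlated at −0.255 to 0.149, and 1 of 10 libraries correlated best with its own number. These values cannot tell whether same-numbered libraries were handled together. A replicate block gave 6 higher and 20 lower calls and 0 pair calls, since its exact sign-flip permutation test cannot go below p = 0.0625. Directions turned for 11 carriers. With median-of-ratios scaling these were Slc25a22 at −0.28, Slc25a30 at −0.35, Slc25a14 at −0.0503, Slc25a36 at −0.40 and Slc25a40 at −0.26. With quantile scaling they were Slc25a22 at −0.58, Slc25a30 at −0.0210, Slc25a14 at −0.28, Slc25a4 at 0.0687, Slc25a36 at −0.20, Slc25a53 at −0.32 and Slc25a40 at −0.59. With equal sums they were Slc25a4 at 0.10, Slc25a38 at 0.11, Slc25a28 at 0.0272 and Slc25a26 at 0.0379. On summed coding transcripts they were Slc25a22 at −0.69, Slc25a37 at −0.38 and Slc25a40 at −0.35. With one library left out, Slc25a22 ranged from −0.13 (without Sham 3) to 0.24, and was −0.044 without UUO 4, and Slc25a38 ranged from −0.11 to 0.0032 (without UUO 4). The cause was not tested. Slc25a53 fell below the filter without any 1 UUO library.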

Other observations

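UUO 2 held more RNA of skeletal muscle markers than the other libraries, at a summed 32.5 FPKM against at most 1.42 FPKM. Acta1 was at 10.6 FPKM in UUO 2 and at most 0.596 FPKM in the other UUO libraries, Ckm at 6.10 FPKM and at most 0.0336 FPKM, and Myh4 at 4.76 FPKM and 0 in the other UUO libraries. Slc25a4, the muscle form of the ADP/ATP translocase, was at 116 FPKM in UUO 2 and 109 to 128 FPKM in the other UUO libraries. In Sham 4 the brown fat gene Cidea was at 61.6 FPKM and the adipocyte gene Fabp4 at 101 FPKM, while Slc25a20 was at 17.2 FPKM there and 12.5 to 16.5 FPKM in the other sham libraries.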
